A study of Rattus norvegicus with 6 samples.

Results

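Solute carriers are membrane proteins that move small molecules across membranes, and 125 genes with their symbols were expressed in Rat-1 cells, an established line of rat fibroblasts. Of these, 4 are named after a carrier and are not carriers themselves. Members were all table rows whose symbol begins with Slc, a family number, a letter and a member number, and whose value reached 5 units in at least 2 of the 6 libraries. Of 337 such symbols among 17143 genes, 209 lay under that level, 42 of them with no read in any library. Slc6a6, Slc38a2, Slc5a3 and Slc40a1 were left out by name, and 3 of these reached the level. The selection used expression level in the same libraries, so the levels below are a description.

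The cells were grown in medium with 10% fetal bovine serum, seeded at 25000 per well and lysed 4 h later while attached to extracellular matrix. There were 3 groups of 2 libraries: cells on matrix remodelled by matrix metalloproteinase 1 (MMP1), on matrix remodelled by MMP13, and on native matrix. Both enzymes are secreted collagenases, and the design asked how fibroblasts respond to a matrix that either of them has degraded. The labels call the samples duplicates of 1 cell line and do not say whether they came from separate cultures, so the p-values reflect how these libraries scatter, and that scatter may be technical only.

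Solute carriers are grouped into numbered families by sequence, and a family often shares a kind of substrate. Some work at the cell surface, where they take up amino acids, sugars and ions. Others sit in mitochondria, lysosomes, the endoplasmic reticulum or the Golgi, where they supply respiration, recycling, and the folding, sulphation and glycosylation of secreted proteins. For a fibroblast that secretes collagen and proteoglycans, all of these routes feed matrix production.

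Values are 3′ end reads divided by 1 size factor per library, called units. The MMP1 libraries held 184061 and 225105 reads, the MMP13 libraries 362122 and 161817, and the native libraries 219775 and 347618. A count of 0 allows a true level of up to 3 reads, or 4.38 and 3.60 units in the MMP1 libraries, 2.21 and 5.04 in the MMP13 libraries, and 3.65 and 2.26 in the native libraries. These floors cover counting error only. Fibroblast markers together took between 2.11% and 2.36% of reads in every library, though Col3a1, on the same list, ran only from 5.84 to 21.8 units. Marker lists of 7 other cell types each took at most 0.0109%, with Epcam, Lep, Alas2 and Ttr at 0 reads throughout. Single markers among them were as high as many members: Csf1r, of leukocytes, ran from 6.79 to 24.0 units and Krt8, of epithelium, from 4.80 to 16.2. Their part in the values below was not tested.

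The members together took 1.25% ± 0.0059 of units on MMP1-treated matrix, 1.27% ± 0.0018 on MMP13-treated matrix and 1.31% ± 0.013 on native matrix (SD, n = 2 each). In bulk RNA, fewer cells that express a gene and less RNA per cell cannot be told apart. Expression was uneven. The 5 highest members held 38.5% of the summed solute carrier units, and the 10 highest held 49.4%. The mean of a member over the 6 libraries ran from 2.39 to 388 units with a median of 11.3, against a median of 13.3 for all 7284 genes at the same level or above. Of the 125, 60 had a mean under 10 units, and 21 had no read in at least 1 library. Because 3′ end libraries read 1 end of a transcript, units were not divided by transcript length, and the order of genes within a class is the order of read numbers only.

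By substrate, mitochondrial carriers had the largest share of solute carrier units, with 24 expressed members of 39 symbols. They took 30.4% ± 1.2 on MMP1-treated, 32.4% ± 3.1 on MMP13-treated and 31.8% ± 1.5 on native matrix (SD, n = 2 each). Carriers of amino acids and peptides came next, with 18 of 58 symbols expressed, followed by zinc carriers (13 of 23) and the nucleotide sugar family (15 of 24). Each of the other classes took under 5% in every library. Of the 15 classes, 4 had a higher and 2 a lower share in both MMP1 libraries than in both native ones, and 9 overlapped. On MMP13-treated matrix 1 was higher, 4 were lower and 10 overlapped. Groups of 2 libraries part often. Of all tested genes, 19.6% lay above native in this way and 18.8% below on MMP1-treated matrix, and 18.9% and 18.6% on MMP13-treated matrix. Parting alone therefore does not set a class aside. The class shares of a library also add up to the whole, so classes do not move independently.

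**Figure D1:**
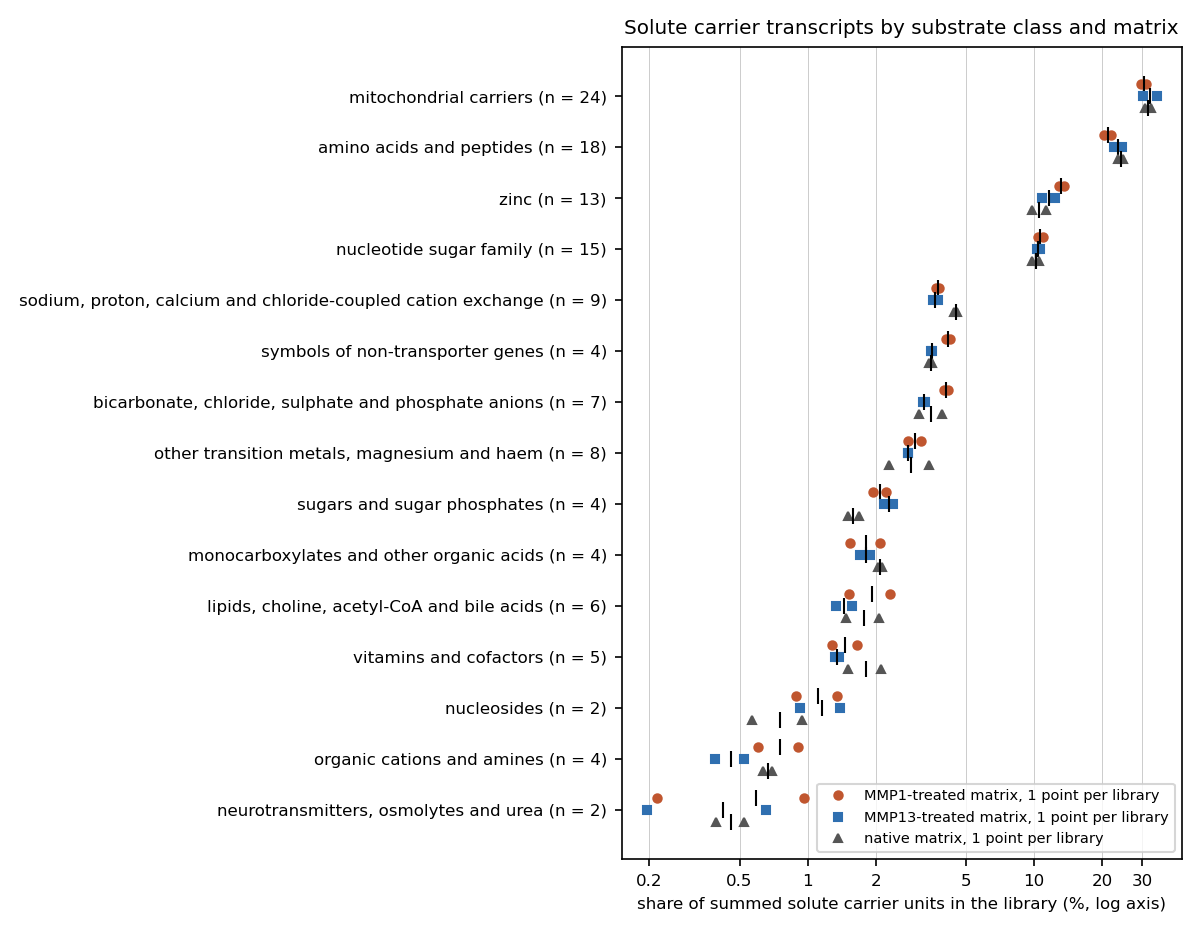
Share of the summed solute carrier units held by each substrate class in each library (log axis, percent), with points for the 2 libraries of each matrix and a bar at their mean. The mitochondrial class lies between 29.6% and 34.7% in all 6 libraries, and sugar carriers lie between 1.95% and 2.39% on the treated matrices, above the 1.502% and 1.68% on native matrix.

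The amino acid class was lower on MMP1-treated matrix, at 21.7% and 20.4% of solute carrier units, against 24.7% and 23.5% on native matrix, and stood at 24.4% and 22.5% on MMP13-treated matrix. The zinc class was higher on MMP1-treated matrix, at 12.9% and 13.5%, against 9.78% and 11.3% on native matrix, with 12.4% and 10.8% on MMP13-treated matrix. In units, Slc39a1 and Slc39a7 carried the MMP1 difference, and the rest of the class showed no rise as a sum. Within that rest, the low members Slc30a6 and Slc30a9 lay above native in both MMP1 libraries, and Slc39a13 and Slc30a4 lay below. Slc30a9 reached the level rule through MMP1 libraries alone. Of the 13 zinc members, 9 had a fold above 0 and 4 below for MMP1 against native, with a median log2 fold of 0.13. Sugar carriers took 1.95% and 2.21% on MMP1-treated, 2.17% and 2.39% on MMP13-treated and 1.502% and 1.68% on native matrix. This class largely followed 1 gene, Slc2a1. On average Slc2a1 held 49.5 of 70.1 class units on MMP1-treated, 55.0 of 77.9 on MMP13-treated and 36.1 of 55.2 on native matrix. For the exchangers of sodium, protons, calcium and chloride the shares were 3.80% and 3.70% on MMP1-treated, 3.57% and 3.75% on MMP13-treated and 4.44% and 4.55% on native matrix. On MMP1-treated matrix all 4 of these classes lay apart from native, as did anion carriers and the symbols of non-carrier genes, both higher. On MMP13-treated matrix the sugar and exchanger classes lay apart, and carriers of organic acids, vitamins and organic cations were lower than native. With 2 libraries per group, no test was run on these sums.

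Gene by gene, no member passed the test in any comparison. The test was limma across all 7284 genes, and a gene passed with a p under 0.05 after Benjamini-Hochberg adjustment over those genes. For MMP1-treated against native matrix 0 of 125 members passed, while 0.151% of all genes did. For MMP13-treated against native matrix 0 passed against 0.412% of all genes, and for MMP13-treated against MMP1-treated matrix 0 passed against 0.0412%. These background calls, 11, 30 and 3 genes, were themselves unstable: over the alternatives they ran from 0 to 17, 0 to 35 and 0 to 27, with 0 in each without the trend. The smallest adjusted p of a member was 0.109 for MMP1 against native, 0.115 for MMP13 against native and 0.546 for MMP13 against MMP1. The count of 0 is partly fixed by the choice of members, since Slc6a6 (MMP1 against native) and Slc38a2 (MMP13 against native), left out by name, each passed in 1 comparison of the same fit.

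At an unadjusted p under 0.05, 14 members differed between MMP1-treated and native matrix, 6 higher and 8 lower. That is 11.2% of members, against 8.24% of all genes. Between MMP13-treated and native matrix 5 members did, 3 higher and 2 lower, or 4.0% against 8.05% of all genes. Between MMP13-treated and MMP1-treated matrix it was 7 members, 5 higher and 2 lower, or 5.6% against 5.22%. The share for MMP13 against MMP1 lies near that of all genes. For MMP1 against native it lies somewhat above, and for MMP13 against native below. No test was run on these differences. By edgeR on the recovered reads, which kept 70 members, 0 were called in each comparison, with 10, 5 and 3 at an unadjusted p under 0.05. DESeq2 called 0, with 7, 5 and 2, though its own filter left an adjusted p for 8 members in the MMP13 against native comparison.

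The median log2 fold of the members was 0.05 for MMP1 against native, beside 0.02 for all genes tested, and -0.10 for MMP13 against native, beside 0.01. It was -0.08 for MMP13 against MMP1, beside -0.0027. With the members that had no read in a whole group set at their bound, or left out where both groups lay at or under the floor, the medians were 0.04, -0.08 and -0.09. Both libraries on MMP1-treated matrix lay above both on native matrix for 21 members (16.8%, against 19.6% of all genes) and below for 27 (21.6%, against 18.8%). On MMP13-treated matrix the counts were 27 above (21.6%, against 18.9%) and 30 below (24.0%, against 18.6%). Of those above, 4 reached the level rule through MMP13 libraries alone, so the selection built in their direction. The same holds for 1 member above on MMP1-treated matrix. It also holds for 1 below on both treated matrices, which reached the level through native libraries alone. These counts are a minimum, since other members reached the level through treated libraries alone, with both native libraries under 5 units. Among them, Slc25a30, Slc31a2 and Slc46a1 lay above native on both treated matrices, Slc26a7 on MMP1-treated and Slc16a7 on MMP13-treated matrix. Their direction was favoured by the selection as well. Both comparisons use the same native libraries. For a typical member the test resolved only large changes at these depths: the 95% interval of a log2 fold had a median half-width of 1.32. Intervals were narrower for high members, as the SE ran from 0.15 to 1.63. In simulated data 0 of 200 genes changed 2-fold and 114 of 200 changed 4-fold were recovered for MMP1 against native. The simulation gave every gene the same spread (dispersion 0.0394) and drew the changed genes from all levels. It therefore does not describe the high members.

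**Figure D2:**
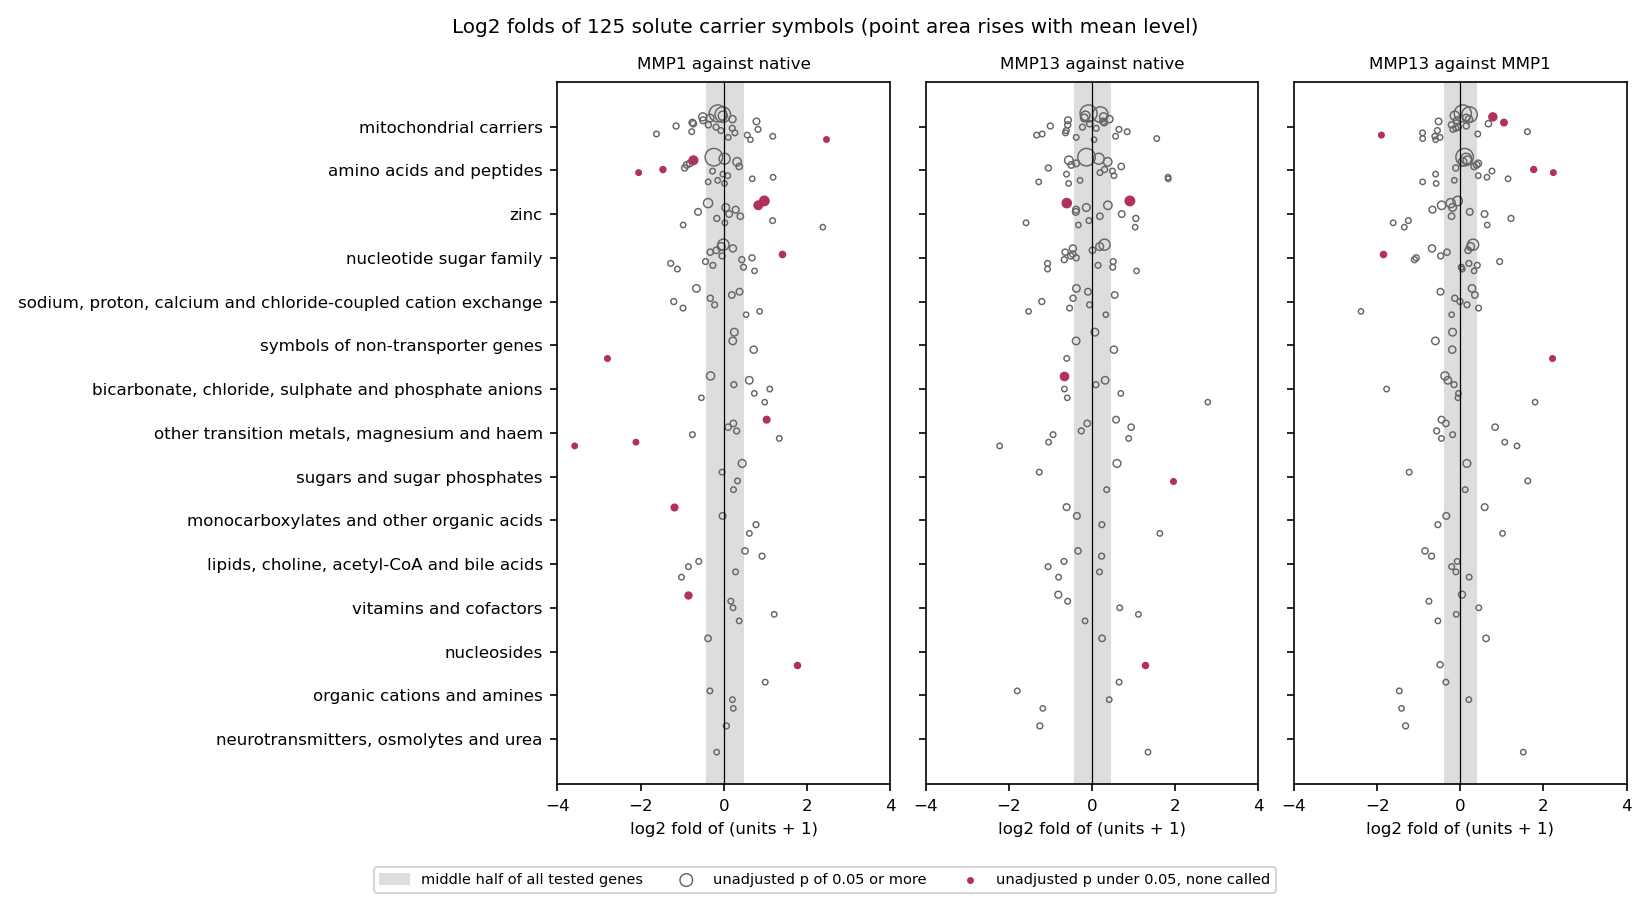
Log2 folds of the 125 members in the 3 comparisons, by substrate class, on the log2 scale of units plus 1. Filled points have an unadjusted p under 0.05 (14, 5 and 7 members), none was called, and the grey band holds the middle 50% of all tested genes.

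Among amino acid carriers, Slc3a2 had the highest mean of the 125 members. It encodes the heavy chain that brings several Slc7 light chains to the cell surface and that also binds integrin beta tails. Slc3a2 stood at 361 and 354 units on MMP1-treated, 396 and 373 on MMP13-treated and 434 and 409 on native matrix. All 4 treated libraries lay below both native ones, and the log2 fold was -0.24 on MMP1-treated (95% interval -0.53 to 0.05, adjusted p = 0.716) and -0.13 on MMP13-treated matrix (-0.42 to 0.16, adjusted p = 0.893). These intervals hold 0.

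Of its light chains, Slc7a5, the carrier of large neutral amino acids, had 117 and 134 units on MMP1-treated, 125 and 153 on MMP13-treated and 124 and 123 on native matrix. Its MMP1 libraries overlapped the native ones, and its MMP13 libraries lay just above them. Slc7a6, a light chain that exchanges cationic for neutral amino acids, was low on MMP1-treated matrix, with 5.84 and 3.60 units there, 16.2 and 20.2 on MMP13-treated and 14.6 and 14.3 on native matrix. These groups did not overlap, but the MMP1 libraries held 4 and 3 reads. The log2 fold of Slc7a6 was -1.46 for MMP1 against native (SE 0.64, adjusted p = 0.470) and 1.76 for MMP13 against MMP1 (SE 0.64, adjusted p = 0.798). Slc7a11, the light chain that exchanges cystine for glutamate and is a target of the stress factors NRF2 and ATF4, had 13.1 and 18.0 units on MMP1-treated, 35.3 and 11.8 on MMP13-treated and 24.3 and 35.5 on native matrix. Its MMP1 libraries lay below the native ones, and its MMP13 libraries overlapped them.

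Other amino acid and peptide carriers behaved unevenly between duplicates. Slc15a3, a lysosomal carrier of peptides and histidine, had 80.3 and 31.2 units on MMP1-treated, 70.6 and 45.3 on MMP13-treated and 91.2 and 77.0 on native matrix. Its log2 fold was -0.73 for MMP1 against native (SE 0.30, adjusted p = 0.424) and -0.56 for MMP13 against native (adjusted p = 0.650). The MMP1 value rested on 1 library, since without MMP1 replicate 2 it was -0.06. In the current annotation the span of Slc15a3 overlaps that of Tmem132a (mean 58.2 units), and with strand use unknown their reads may not be separable. Slc43a2, a carrier of neutral amino acids, held 2 and 0 reads on MMP1-treated, 14 and 4 on MMP13-treated and 7 and 8 on native matrix, with a log2 fold of 2.24 for MMP13 against MMP1 (adjusted p = 0.823). Slc1a5, the glutamine carrier, had 81.8 and 52.8 units on MMP1-treated, 79.4 and 58.8 on MMP13-treated and 49.8 and 55.1 on native matrix, so its MMP1 libraries overlapped the native ones and its MMP13 libraries lay above them.

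Mitochondrial carriers of the Slc25 family exchange nucleotides, phosphate, metabolites and cofactors between cytosol and matrix of the mitochondrion. Slc25a4, an ADP/ATP exchanger, had 326 and 372 units on MMP1-treated, 320 and 411 on MMP13-treated and 357 and 414 on native matrix. Slc25a3, the phosphate carrier, had 288 and 269 units on MMP1-treated, 290 and 363 on MMP13-treated and 269 and 297 on native matrix. For both genes the treated libraries overlapped the native ones. Slc25a39, implicated in glutathione import, lay between 68.8 and 94.3 units in all 6 libraries, again with overlap.

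The second ADP/ATP exchanger gene, Slc25a5, differed more between the treated matrices, at 57.4 and 73.9 units on MMP13-treated against 36.5 and 38.4 on MMP1-treated matrix, with 55.9 and 51.3 on native matrix. The log2 fold for MMP13 against MMP1 was 0.78 (SE 0.32, 95% interval 0.15 to 1.42, adjusted p = 0.823). Slc25a32, which carries folate or flavin into mitochondria, had a log2 fold of 1.05 in that comparison (adjusted p = 0.844), with 22.8 and 35.3 units on MMP13-treated against 16.1 and 10.8 on MMP1-treated matrix, and 31.6 and 16.6 on native matrix. Slc25a44, a carrier of branched-chain amino acids, went the other way, with 4 and 1 reads on MMP13-treated against 10 and 7 on MMP1-treated matrix (log2 fold -1.90, adjusted p = 0.823). Of the 24 members, 10 had a fold above 0 and 14 below for MMP1 against native (median log2 fold -0.05), and 11 above and 13 below for MMP13 against native (median -0.07). Slc25a30, with 11 and 4 reads on MMP1-treated, 5 and 3 on MMP13-treated and 0 and 3 on native matrix, had the highest fold of the class (2.46 on MMP1-treated matrix, adjusted p = 0.475). It reached the level rule with a second-highest value of 5.04 units. It did so through treated libraries alone, so its higher value there than on native matrix was built into the selection.

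**Figure D3:**
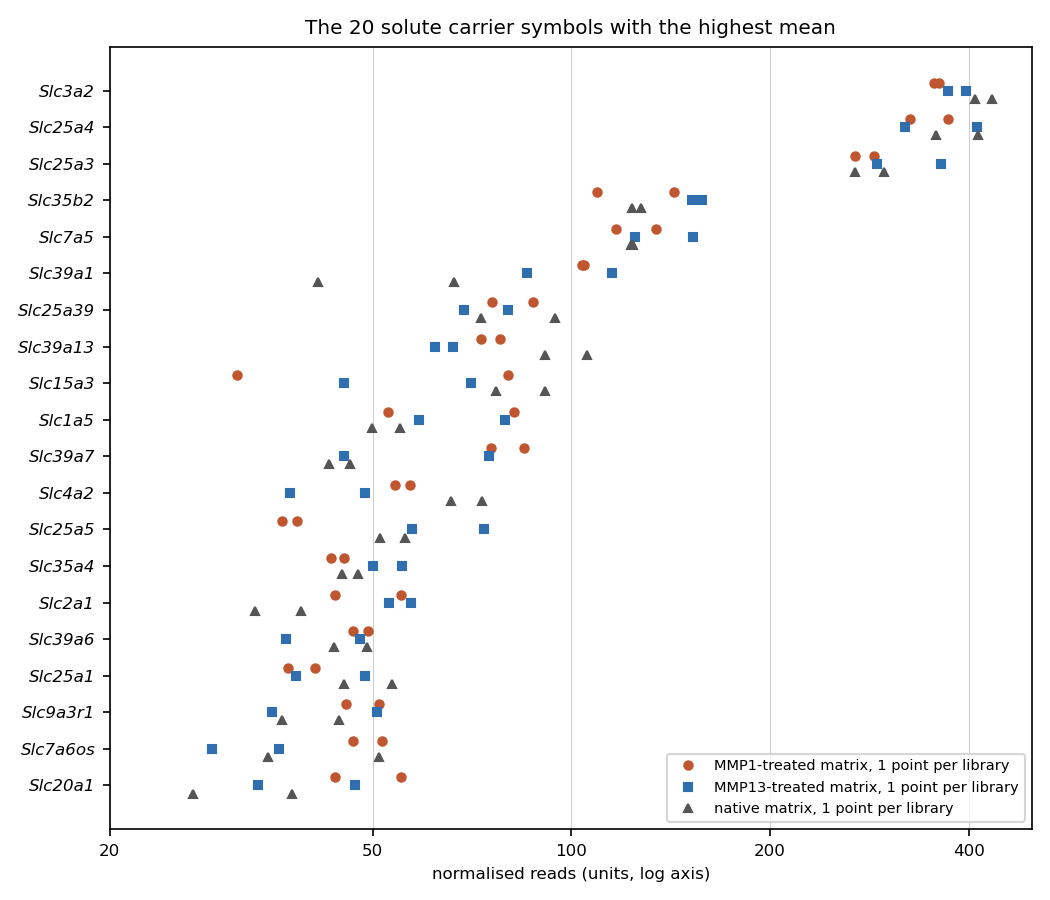
Units of the 20 members with the highest mean, in each library (log axis), with 1 point per library. Slc3a2 lies at 354 to 434 units in all libraries, and Slc39a1 lies at 85.6 to 115 on the treated matrices, above the 41.3 and 66.4 on native matrix.

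Zinc carriers fall into Slc39 members, which bring zinc into the cytosol, and Slc30 members, which take it out. The 8 expressed Slc39 genes summed to 374 and 369 units on MMP1-treated, 355 and 292 on MMP13-treated and 284 and 318 on native matrix. The MMP1 sums lay above both native ones, a difference carried by Slc39a1 and Slc39a7, and the MMP13 sums overlapped them. The 5 Slc30 genes summed to 61.3 and 86.4 units on MMP1-treated, 62.5 and 78.9 on MMP13-treated and 55.9 and 72.4 on native matrix, all overlapping.

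Slc39a1, a zinc importer of the cell surface, had the smallest p of any member against native on both treated matrices. It stood at 104 and 104 units on MMP1-treated, 115 and 85.6 on MMP13-treated and 41.3 and 66.4 on native matrix, with every treated library above both native ones. The log2 fold was 0.98 on MMP1-treated (SE 0.27, 95% interval 0.45 to 1.501, adjusted p = 0.109) and 0.91 on MMP13-treated matrix (SE 0.27, 0.39 to 1.44, adjusted p = 0.115). Without native replicate 2 the adjusted p was 0.0411 for MMP1 against native and 0.0470 for MMP13 against native. Without native replicate 1 it was 0.998 and 0.999, with folds of 0.64 and 0.58. Over all alternatives it ran from 0.0411 to 1 on MMP1-treated and from 0.0470 to 0.999 on MMP13-treated matrix.

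Slc39a7, which releases zinc from the endoplasmic reticulum, had 84.7 and 75.6 units on MMP1-treated, 75.01 and 45.3 on MMP13-treated and 46.2 and 43.0 on native matrix. Its log2 fold on MMP1-treated matrix was 0.83 (SE 0.30, adjusted p = 0.305), and its span overlaps that of Rxrb (mean 15.95 units) in the current annotation. Slc39a13, a carrier of intracellular vesicles and the Golgi whose loss causes a connective tissue disorder in humans, was at 73.0 and 78.0 units on MMP1-treated, 66.2 and 62.1 on MMP13-treated and 106 and 91.3 on native matrix. Its treated libraries all lay below both native ones, with log2 folds of -0.38 (adjusted p = 0.754) and -0.61 (SE 0.27, 95% interval -1.14 to -0.07, adjusted p = 0.509). Slc39a6, another zinc importer, overlapped between all groups at 36.9 to 49.2 units.

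The RefSeq promoter windows of Slc39a1 and of the lysosomal nucleoside carrier Slc29a3 are shown because these members had the smallest p among those higher than native on both treated matrices. Windows run from 250 bases before to 50 after the gene's start. Capitals mark a match on either strand to TGACNNNGC, the core of the antioxidant response element that NRF2 binds. The rat assembly is GRCr8, which is not the build of the reads.
Slc39a1, chr2:178000869-178001168, plus strand: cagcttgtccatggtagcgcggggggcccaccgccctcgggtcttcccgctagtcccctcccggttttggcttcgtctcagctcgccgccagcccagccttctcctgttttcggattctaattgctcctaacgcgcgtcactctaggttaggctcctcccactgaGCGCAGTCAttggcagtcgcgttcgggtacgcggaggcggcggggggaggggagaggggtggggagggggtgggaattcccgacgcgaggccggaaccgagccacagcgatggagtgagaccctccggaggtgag
Slc29a3, chr20:29228250-29228549, minus strand: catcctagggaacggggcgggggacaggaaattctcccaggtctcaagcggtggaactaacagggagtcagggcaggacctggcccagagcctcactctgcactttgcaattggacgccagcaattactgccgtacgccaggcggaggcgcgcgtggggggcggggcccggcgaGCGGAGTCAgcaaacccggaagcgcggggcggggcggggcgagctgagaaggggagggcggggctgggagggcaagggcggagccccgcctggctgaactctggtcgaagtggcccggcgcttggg
Each window held 1 match, 85 bases and 76 bases before the start. The motif was present in 12.1% of all 33469 promoter windows of that length, and in 20 of the 104 windows of members (19.2%). Members were chosen as expressed, while the windows at large include genes not expressed here. These shares therefore do not compare like sets, and their difference was not tested. A match describes letters in a window and is no evidence of binding.

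The Slc35 family moves nucleotide sugars and related nucleotides into the Golgi and endoplasmic reticulum. Slc35b2, which supplies the sulphate donor for proteoglycan sulphation, was its most abundant gene, with 143 and 109 units on MMP1-treated, 152 and 158 on MMP13-treated and 128 and 124 on native matrix. Slc35a4 followed, with 45.3 and 43.2 units on MMP1-treated, 50.01 and 55.4 on MMP13-treated and 45.0 and 47.5 on native matrix. Slc35b1, an ATP carrier of the endoplasmic reticulum, had 33.6 and 45.6 units on MMP1-treated, 26.5 and 21.8 on MMP13-treated and 46.2 and 24.1 on native matrix. The family as a whole overlapped between the groups, with sums of 369 and 349 units on MMP1-treated, 358 and 354 on MMP13-treated and 365 and 340 on native matrix.

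Slc35e4, a family member without a well-known substrate, had the smallest p of any member between the treated matrices. It had 22.1 and 1.68 units on MMP13-treated against 27.7 and 27.6 on MMP1-treated matrix, with 8.51 and 11.3 on native matrix. The log2 fold for MMP13 against MMP1 was -1.87 (SE 0.60, adjusted p = 0.546). It turned on MMP13 replicate 2, which held 1 read: without that library the fold was -0.31, and without MMP13 replicate 1 it was -3.42 (adjusted p = 0.00532). Against native, the fold on MMP1-treated matrix was 1.41 (SE 0.60, adjusted p = 0.452), and the gene's span overlaps that of Dusp18 (mean 3.01 units). Slc35c2 (log2 fold -1.10) and the CMP-sialic acid carrier Slc35a1 (-1.06) were also lower on MMP13-treated than on MMP1-treated matrix in both libraries, with adjusted p of 0.99 each.

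Ion carriers set cell volume, pH and calcium. Slc12a4, a potassium-chloride carrier, had 35.0 and 27.6 units on MMP1-treated, 33.1 and 43.7 on MMP13-treated and 53.5 and 46.0 on native matrix, with log2 folds of -0.66 (adjusted p = 0.648) and -0.38 (adjusted p = 0.865). Its treated libraries all lay below both native ones. Slc12a2, the sodium-potassium-chloride carrier, had 27.7 and 31.2 units on MMP1-treated, 23.5 and 18.5 on MMP13-treated and 25.5 and 19.6 on native matrix. Its MMP1 libraries lay above the native ones and its MMP13 libraries overlapped them. Slc24a6, a mitochondrial sodium-calcium exchanger, had 26.3 and 14.4 units on MMP1-treated, 23.5 and 26.9 on MMP13-treated and 12.2 and 23.4 on native matrix, the MMP13 libraries just above the native ones.

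Among anion carriers, the chloride-bicarbonate exchanger Slc4a2 had 57.0 and 54.0 units on MMP1-treated, 37.5 and 48.7 on MMP13-treated and 65.6 and 73.2 on native matrix. All treated libraries lay below both native ones, with log2 folds of -0.32 (adjusted p = 0.829) and -0.68 (SE 0.31, adjusted p = 0.529). Slc20a1, a phosphate importer, ran the other way on MMP1-treated matrix, at 43.8 and 55.2 units against 26.7 and 37.7 on native matrix, and had 47.1 and 33.6 on MMP13-treated matrix. Its relative Slc20a2 overlapped between groups at 8.51 to 14.6 units.

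Carriers of iron, copper, magnesium and haem were mostly low. Slc48a1, which moves haem out of endosomes and lysosomes, had 35.0 and 30.01 units on MMP1-treated, 27.2 and 20.2 on MMP13-treated and 19.4 and 12.1 on native matrix. Its treated libraries all lay above the native ones, and its log2 folds were 1.03 (SE 0.46, 95% interval 0.14 to 1.93, adjusted p = 0.480) and 0.58 (adjusted p = 0.809). The MMP13 fold of Slc48a1 was 0.26 without native replicate 2, and 0.37 without MMP13 replicate 1. Slc31a1, the copper importer, was higher in the MMP13 libraries, at 25.004 and 28.5 units against 17.0 and 10.6 on native matrix, with 17.5 and 12.0 on MMP1-treated matrix (log2 fold 0.94 for MMP13 against native, adjusted p = 0.650). Slc11a2, an importer of iron and other divalent metals, overlapped native on both treated matrices, at 15.8 to 25.2 units. Slc41a1, a magnesium carrier, had 0 reads in both MMP1 libraries, 2 and 1 in the MMP13 libraries and 16 and 8 in the native ones. Against a floor of 3 reads per library it was at least 3.19-fold lower on MMP1-treated than on native matrix, and it was not called (adjusted p = 0.347). Slc41a1 reached the level rule through the native libraries alone, so its lower value elsewhere was built into the selection. The bound was 1.51-fold without native replicate 1 and 4.87-fold without native replicate 2.

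Carriers of sugars and organic acids were few. Slc2a1, the glucose importer of most cells, had 43.8 and 55.2 units on MMP1-treated, 52.9 and 57.1 on MMP13-treated and 38.9 and 33.2 on native matrix. Every treated library lay above both native ones, with log2 folds of 0.44 (95% interval -0.22 to 1.11, adjusted p = 0.769) and 0.60 (-0.06 to 1.26, adjusted p = 0.669). Slc37a4, which carries glucose-6-phosphate into the endoplasmic reticulum, had 11.03 and 13.4 units on MMP13-treated and 0 and 10.6 on native matrix, with 4.38 and 2.40 on MMP1-treated matrix. Its log2 fold of 1.95 for MMP13 against native (adjusted p = 0.570) rested on native replicate 1, and was 0.19 without that library. Slc50a1, a sugar carrier of the SWEET kind, had 14.6 and 4.80 units on MMP1-treated, 5.15 and 1.68 on MMP13-treated and 8.51 and 9.06 on native matrix, with the MMP13 libraries below the native ones.

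Of the organic acid carriers, Slc17a5, which exports sialic acid from lysosomes, was lower on the treated matrices. It had 17.5 and 13.2 units on MMP1-treated, 29.4 and 18.5 on MMP13-treated and 34.0 and 38.5 on native matrix, without overlap with native. The log2 folds were -1.20 (SE 0.45, 95% interval -2.08 to -0.31, adjusted p = 0.341) and -0.61 (adjusted p = 0.786). The MMP13 fold of Slc17a5 was -0.29 without MMP13 replicate 2. Slc16a1, which carries lactate and pyruvate, stood at 24.8 and 27.6 units on MMP1-treated, 25.004 and 16.8 on MMP13-treated and 25.5 and 27.9 on native matrix. Slc16a6 varied widely within groups, from 3.77 to 15.1 units over all libraries.

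**Figure D4:**
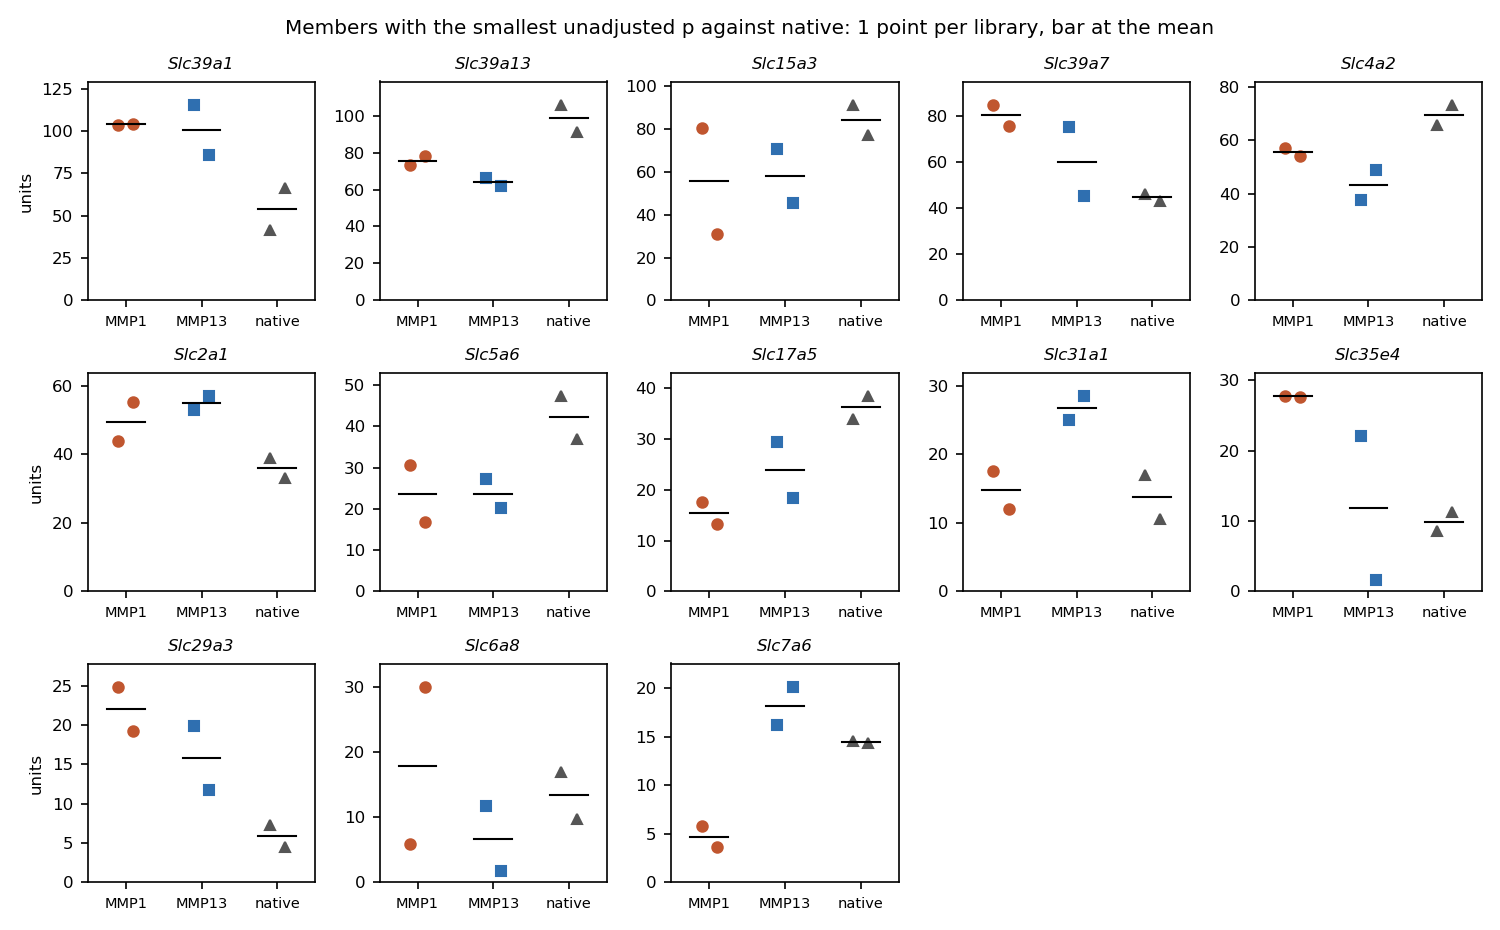
Units of 13 members with a mean of at least 10 that were among the 5 smallest p in a direction against native, with 1 point per library and a bar at the mean of each matrix. Slc39a1 and Slc29a3 lie higher in all treated libraries than on native matrix, and Slc39a13 and Slc17a5 lie lower.

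Slc29a3, a nucleoside carrier of lysosomes and mitochondria, had 24.8 and 19.2 units on MMP1-treated, 19.9 and 11.8 on MMP13-treated and 7.29 and 4.53 on native matrix. These groups did not overlap with native, where 6 reads were counted in each library. The log2 fold was 1.75 on MMP1-treated (SE 0.59, 95% interval 0.59 to 2.92, adjusted p = 0.232) and 1.27 on MMP13-treated matrix (SE 0.59, adjusted p = 0.547). Slc29a1, the nucleoside carrier of the cell surface, overlapped between groups at 10.8 to 27.2 units.

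Vitamin carriers included Slc5a6, which takes up biotin and pantothenate, at 30.7 and 16.8 units on MMP1-treated, 27.2 and 20.2 on MMP13-treated and 47.4 and 37.0 on native matrix. Its treated libraries lay below both native ones, with log2 folds of -0.85 (SE 0.42, adjusted p = 0.584) and -0.81 (SE 0.42, adjusted p = 0.624). Without MMP1 replicate 2 the MMP1 fold was -0.44. Slc23a2 imports ascorbate, a cofactor of collagen hydroxylation. It had 10.2 and 8.40 units on MMP1-treated, 2.94 and 8.40 on MMP13-treated and 7.29 and 9.06 on native matrix, with overlap. The folate carrier Slc19a1 lay between 2.26 and 10.3 units. Lipid carriers were also low. Slc44a1, a choline carrier, ran from 7.35 to 24.0 units over all libraries, Slc44a2 from 4.41 to 26.4 and the fatty acid carrier Slc27a4 from 1.68 to 16.2.

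The creatine importer Slc6a8 shows how far duplicates could part at this depth. It had 5.84 and 30.01 units on MMP1-treated, 11.8 and 1.68 on MMP13-treated and 17.0 and 9.81 on native matrix. Its log2 folds of -1.25 for MMP13 against native (adjusted p = 0.650) and -1.32 for MMP13 against MMP1 (adjusted p = 0.958) came from groups that overlapped. The fold against native was -0.13 without MMP13 replicate 2. The organic cation class held Slc22a15, Slc22a23 and the vesicular amine carrier Slc18a1, each at 15.8 units or less in every library.

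At the edge of the level rule, Slc25a30, Slc6a3, which encodes the dopamine carrier, and Slc34a1, a phosphate carrier known from kidney, had second-highest values of 5.04, 5.04 and 5.15 units. Just outside it, Slc25a35, Slc7a14 and Slc25a38 had 4.86, 4.86 and 4.80. The reads counted under Slc34a1 were identical to those of Pfn3 in all libraries. Of the 125 members, 6 reached the level through 1 group alone: 1 through MMP1, 4 through MMP13 and 1 through native libraries.

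The symbol rule also took in 4 genes that are named after a solute carrier and are not carriers themselves. Slc9a3r1 and Slc9a3r2 encode scaffold proteins that bind ion carriers, Slc7a6os is a neighbour of Slc7a6, and Slc4a1ap encodes a protein found as a partner of an anion exchanger. Slc4a1ap had 0 and 2 reads on MMP1-treated, 9 and 5 on MMP13-treated and 11 and 14 on native matrix, with a log2 fold of -2.80 for MMP1 against native (SE 0.93, adjusted p = 0.223) and 2.20 for MMP13 against MMP1 (adjusted p = 0.823). Slc9a3r1 had 51.1 and 45.6 units on MMP1-treated, 50.7 and 35.3 on MMP13-treated and 36.5 and 44.5 on native matrix. Slc9a3r2 had 39.4 and 43.2 units on MMP1-treated, 26.5 and 48.7 on MMP13-treated and 18.2 and 33.2 on native matrix. Slc7a6os had 46.7 and 51.6 units on MMP1-treated, 36.0 and 28.5 on MMP13-treated and 51.1 and 34.7 on native matrix.

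Proteins that power or assist carriers were described from 6 lists. Of 4 tested subunits of the sodium-potassium pump, which maintains the sodium gradient many carriers use, 0 passed on either treated matrix, and the beta subunit gene Atp1b3 had 97.8 and 121 units on MMP1-treated, 118 and 124 on MMP13-treated and 111 and 90.55 on native matrix. Its MMP1 libraries overlapped the native ones, and its MMP13 libraries lay above them. Of 6 carrier-assisting proteins 0 passed. Among them Bsg, the surface chaperone of lactate carriers, had 637 and 622 units on MMP1-treated, 588 and 626 on MMP13-treated and 762 and 795 on native matrix, with log2 folds of -0.31 (SE 0.12, adjusted p = 0.387) and -0.36 (SE 0.12, adjusted p = 0.257). Those libraries did not overlap.

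Of 25 tested genes of the amino acid response, 0 passed. At an unadjusted p under 0.05, 5 were higher and 1 lower on MMP1-treated than on native matrix, and 5 higher and 2 lower on MMP13-treated. Among all tested genes, 8.24% and 8.05% had such a p, in either direction. The amino acid response list was chosen with earlier results of these data known, so its counts are a description. The list had a median log2 fold of 0.25 for MMP1 against native, beside 0.02 for all genes, and 0.03 for MMP13 against native, beside 0.01. Atf4, the transcription factor of this response, had 247 and 274 units on MMP1-treated, 305 and 227 on MMP13-treated and 159 and 188 on native matrix (log2 fold 0.58 for MMP1 against native, SE 0.18, adjusted p = 0.159). The stress gene Nupr1 had 81.8 and 81.6 units on MMP1-treated, 89.0 and 85.6 on MMP13-treated and 62.0 and 30.9 on native matrix. Its log2 folds were 0.88 (adjusted p = 0.214, 0.39 to 1.37 over the alternatives) and 0.98 (adjusted p = 0.116, 0.49 to 1.47). Ddit4, an inhibitor of mTORC1 signalling, had 1.39 on MMP13-treated matrix (adjusted p = 0.0582). The adjusted p of Ddit4 ran from 0.0360 to 0.999 over the alternatives. Of 15 tested subunits of the vacuolar proton pump, which acidifies the compartments of lysosomal carriers, 0 passed. Atp6v0b, 1 of them, had 83.2 and 74.4 units on MMP1-treated, 96.3 and 95.7 on MMP13-treated and 148 and 107 on native matrix. Of 10 genes of the mitochondrial pyruvate carrier, outer membrane and import channels, 0 passed. Of 10 genes of metal handling, 1 passed, the ferritin chain gene Ftl1 on MMP13-treated matrix. Ftl1 had 139 and 137 units on MMP1-treated, 193 and 171 on MMP13-treated and 96.0 and 89.8 on native matrix, with log2 folds of 0.56 (adjusted p = 0.369) and 0.96 (adjusted p = 0.00854). The MMP13 call was kept in 11 and lost in 6 of the 17 alternatives (adjusted p from 0.00320 to 0.765): with TMM factors, without the trend and without any 1 of the MMP13 or native libraries. Metallothionein Mt2A had 99.3 and 86.4 units on MMP1-treated, 70.6 and 53.7 on MMP13-treated and 72.9 and 70.2 on native matrix.

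Reads assigned to Rn45s, a ribosomal RNA precursor gene, made up 0.661% and 0.936% of reads on MMP1-treated, 0.692% and 0.968% on MMP13-treated and 0.347% and 0.293% on native matrix. Its share was higher in every treated library than in both native ones. Some members above also had treated libraries that lay apart from native, though none passed the test. The part of Rn45s in those values was not tested.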

How the data were processed

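The authors deposited 1 table of normalised signal, with 1 column for each of the 6 libraries. The tools used were TopHat, DESeq and bcl2fastq, with rat build rn5, per the submitters' processing notes. The read counter, annotation, strand use and collapsing of the molecular identifiers of 8 bases (named in the labels) remain not given in the sources used here. Each deposited signal value is gene counts divided by 1 size factor per library: divided by a step found for its library, 100% of the nonzero values came out whole within 0.01 reads. Recovered totals were 161817 to 362122 reads, and 1 read was worth 0.735 to 1.68 units.

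The level filter asked for 5 units or more in 2 or more libraries and left 7284 genes. These were compared as log2(value + 1) by limma 3.58.1 under R 4.3.3 (eBayes, trend on mean level, all 6 libraries, 1 coefficient per group, no replicate block), 2-sided, with Benjamini-Hochberg adjustment over all genes tested. The fit gave infinite prior degrees of freedom: each gene's error came from the trend at its level, and a gene whose duplicates scatter more gets too small an error. Folds on this scale understate changes of low genes. Alternatives were edgeR 4.0.16 (quasi-likelihood test) and DESeq2 1.42.0 on recovered reads, other pseudocounts, filters and scalings, no trend, only the 2 groups compared, a replicate block and each library left out. The fit was tested on simulated counts.

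The members, substrate classes, lists and tests were chosen with earlier results of these data known. Members named were, per substrate class, the 3 with the highest mean, and, per comparison and direction, the 5 with the smallest p, plus the 3 nearest the level rule. Of each list, called genes or else the 2 with the smallest p were eligible. Slc7a11, Slc1a5 and Slc39a6 were named after their values were seen, and the 4 non-carrier symbols were set apart after the members were seen. Symbols were used as deposited. Against RefSeq's GRCr8 genes, 122 members matched by symbol and 3 by synonym, 16 of them with a span that overlaps another named gene of the table. No coordinates of the reads are given. Some genes that the naming rule takes are not reported here.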

Additional observations from a re-analysis of the deposited data

How the results depend on the processing

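The count of members called was 0 in each of the 3 comparisons with limma, and also under each alternative that kept both libraries of each group compared (pseudocounts of 0.5 and 5, no filter, a filter of 10 units in 3 libraries, TMM factors, quantile scaling, no trend, only the 2 groups compared, edgeR and DESeq2). With a library left out it ran from 0 to 1 in each comparison. The calls gained were Slc39a1 against native on either treated matrix without native replicate 2, and Slc35e4 between the treated matrices without MMP13 replicate 1. With the replicate number as a block, 0 members were called in each comparison. The numbers were not taken as pairs, since deviations of same-numbered libraries correlated at -0.045, 0.0059 and -0.072 across genes. Of 375 member folds, 44 were recomputed one by one, mostly those with the smallest p or printed here. Of their 731 values over 17 alternatives, 0 reversed, and 728 kept their direction and were not called or had no adjusted p. The remaining values were the calls named above. Values without an adjusted p have no side of the threshold: DESeq2 gave one to 8 of 125 members for MMP13 against native. The constant direction does not hold for members at large. Over the alternatives, log2 folds of both signs were found for 62 members for MMP1 against native, 45 for MMP13 against native and 56 for MMP13 against MMP1. Calls over all genes also moved: 11 for MMP1 against native became 3 with TMM factors, 3 without native replicate 1 and 17 without native replicate 2; 30 for MMP13 against native became 8, 6 and 35, and 7 without MMP13 replicate 2; 3 for MMP13 against MMP1 became 27 without MMP13 replicate 1. Each was 0 without the trend. With a level rule of 10 units in 2 libraries, 82 members were left. Depth limits all of this: 60 members averaged under 10 units, where a few reads decide a fold.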
